A study of Mus musculus with 16 samples.

Results

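Open chromatin of late T helper 2 (Th2) cells without Bcl11b was compared with that of late Th2 cells that kept the gene. The comparison took in every DNase-seq list that the labels place in the late Th2 stage. These were 4 of the 16 libraries of the series, 2 from Bcl11b knockout (KO) cells and 2 from wild type (WT) cells. All cells came from C57BL/6 mice with both Bcl11b alleles floxed and a CreERT2 recombinase, which acts once 4-hydroxytamoxifen (4-OHT) is added. Late cells were cultured under Th2 conditions for 4 days, rested in IL-2 for 1 day, and cultured in the same way for another 4 days. KO cells received 4-OHT in the second culture and WT cells did not, so both groups started from the same alleles. No cells that kept Bcl11b were given 4-OHT, so loss of the gene and exposure to 4-OHT cannot be told apart. The labels call the isolated CD4 T cells naive and also give a CD4+CD44high sort, a phenotype of activated cells. The age of the mice and the promoter that drives the recombinase are not given in the sources used here. Nothing says that replicates came from separate animals or cultures, so p-values measure only how far these samples spread, and that spread may be technical.

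Bcl11b is a zinc finger transcription factor that T cell precursors need for commitment to the T lineage and that mature T cells continue to express. GATA3 sets up the Th2 fate and opens the locus of the cytokines Il4, Il13 and Il5, while T-bet, encoded by Tbx21, drives the Th1 fate and the cytokine Ifng. DNase I cuts DNA where nucleosomes are loose or absent, so stretches rich in cuts mark open promoters and enhancers, and acetylation of histone H3 at lysine 27 (H3K27ac) marks the active ones.

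The KO lists were shorter than the WT lists. Late KO replicates 1 and 2 held 18812 and 17397 enriched islands, against 27416 and 36963 in the late WT replicates. An island is a run of enriched 200-bp windows, each with a score from the authors' peak caller, and each library was called on its own. KO islands covered 25.9 and 26.2 Mb, and WT islands covered 44.7 and 52.4 Mb. KO lists averaged 26.1 ± 0.208 Mb, against 48.5 ± 5.43 Mb in WT lists (SD, n = 2 each), a KO to WT ratio of 0.537. The groups did not overlap, but 2 against 2 cannot give an exact two-sided permutation p below 0.33, the value found here. The late H3K27ac lists of the same genotypes showed no such gap, with 112 and 101 Mb in KO against 102 and 103 Mb in WT. The lists hold no read counts, so the depth is unknown, and an island missing from a list shows only that none was called there. Whether the gap in list length stems from the cells or from the libraries was not tested. No late list was a copy of another.

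The lists were also cut by score to equal length, either in number of islands or in bases covered. With each list cut to its 17397 highest-scoring islands, KO covered 24.4 and 26.2 Mb and WT covered 32.7 Mb in both replicates. The median island was 1200 bp wide in both KO lists and 1600 bp in both WT lists. With each list cut to 25.9 Mb, the KO lists kept 18812 and 17165 islands and the WT lists kept 12691 and 12586. At equal number the WT islands were thus the wider ones, and at equal covered length the WT lists held fewer islands. In whole lists the medians were 1200 bp in both KO lists and 1400 and 1200 bp in WT. The cuts left the KO lists nearly whole and kept only the higher-scoring WT islands. Width rose with score in every list, for example from a median of 1000 to 2400 bp in WT replicate 1. How much of the gap in width comes from the cut was not tested.

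Almost everything listed in KO was also listed in WT. Of the KO islands, 91.6% and 92.6% overlapped islands of both WT lists, while 52.7% and 39.7% of the WT islands overlapped islands of both KO lists. The overlap was larger at higher scores. Among the 10% of islands with the lowest scores, 73.7% and 76.3% of KO islands were found in both WT lists, against 6.24% and 2.22% of WT islands found in both KO lists. Among the 10% with the highest scores all 4 values lay between 99.7% and 99.9%. Nearly all of the strongest open sites of each genotype were therefore listed in the other one too, and the difference lay in islands of low and middle score.

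**Figure D1:**
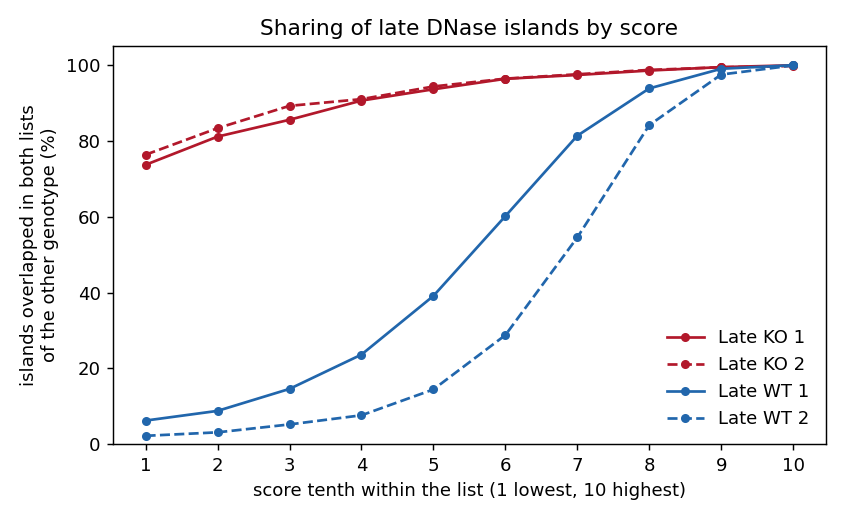
Share of late DNase islands (y axis, %) that overlapped islands in both lists of the other genotype, by score in 10 classes within each list (x axis, low to high). The KO curves start at 73.7% and 76.3% and the WT curves at 6.24% and 2.22%, and all 4 end between 99.7% and 99.9%.

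Replicates resembled each other more than genotypes did, but less so among KO lists. The 200-bp windows shared by a pair of lists, as a share of those covered in either, came to 47.7% between KO replicates, 37.4% on average between KO and WT lists (35.1% to 39.8% over 4 pairs) and 52.6% between WT replicates. In lists of equal island number these values were 48.0%, 44.8% and 57.9%.

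Islands of the 4 lists that overlapped or touched were merged into 37476 regions. In 14096 of them all 4 lists had an island. In whole lists, 358 regions (0.955%) had an island in both KO lists and in neither WT list, and 8122 (21.7%) had one in both WT lists and in neither KO list. The balance followed the cut. At equal island number, 1205 of 22045 regions (5.47%) were KO only and 1430 (6.49%) WT only. At equal covered length, 2885 of 20535 regions (14%) were KO only and 256 (1.25%) WT only. Which genotype had more regions of its own was therefore not a stable property of these lists. Of these 3 cuts, whole lists gave the fewest KO-only regions and equal covered length the fewest WT-only regions. Of the 358 KO regions, 98.6% were also found in KO alone at equal covered length, where they made up 12.2% of that class. Of the 256 WT regions, 98.4% overlapped the WT class of the whole lists, 3.10% of which overlapped them. The 98.6% and 98.4% were nearly fixed in advance and do not show that a class is stable. This cut left the KO lists almost whole and only took islands out of the WT lists. Without late WT replicate 1 the whole lists gave 17399 regions in WT alone. Without late KO replicate 1 or 2, or late WT replicate 2, they gave 671, 788 and 653 in KO alone.

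**Figure D2:**
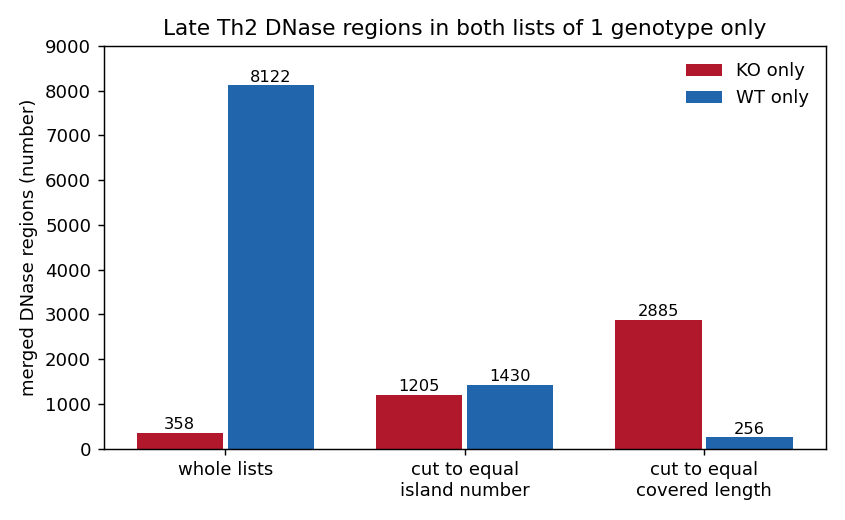
Number of merged late DNase regions (y axis) with islands in both KO and neither WT list (red) or both WT and neither KO list (blue), for whole lists and 2 ways of cutting them by score. The pair of counts is 358 and 8122, then 1205 and 1430, then 2885 and 256.

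In regions listed in both genotypes, the islands of whole lists also covered less in KO. Depth is unknown, and whether the open sites themselves were narrower was not tested. Over the 14096 shared regions the islands covered 1.49 and 1.57 kb per region in the KO lists, against 2.01 and 2.02 kb in the WT lists. By chromosome, KO-only regions made up 0.293% (X) to 1.40% (chromosome 1) of all regions, and WT-only regions 19.3% (chromosome 8) to 24.4% (chromosome 15).

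The H3K27ac and early DNase libraries played no part in sorting the regions. Of the 358 regions found in late KO alone, 66.8% and 69.0% held an H3K27ac island in the late KO libraries, against 21.8% and 23.2% in the late WT libraries. The mean difference was 45.4 percentage points, and the groups did not overlap. The same regions held an early DNase island in 58.9% and 81.6% of cases in early KO, against 11.5% and 17% in early WT. Early cells had only the first 4 days of Th2 culture, with 4-OHT for KO. The KO regions thus carried the KO to WT difference in other libraries of the same genotypes. The gap in H3K27ac narrowed to 21.9 points in the 1205 KO regions at equal island number and to 11.6 points in the 2885 at equal covered length.

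Most regions found in WT alone held H3K27ac in both genotypes. Of the 8122 such regions, 65.5% and 66.4% held an H3K27ac island in late KO, against 66.3% and 72.6% in late WT. The mean difference was -3.52 percentage points, smaller than the SD of 4.44 between the WT libraries. Counted region by region, 4832 of the 8122 (59.5%) had an H3K27ac island in all 4 late libraries and 1966 (24.2%) in none. Of the others, 286 had one in both WT libraries and in neither KO library, and 93 the reverse. Of the 256 found in WT alone at equal covered length, 86.3% and 87.9% held H3K27ac in late KO, against 89.8% and 92.2% in late WT. Early DNase islands lay in 41.1% and 78.6% of the 8122 regions in early KO, against 84.7% and 89.4% in early WT. Early KO replicate 1, which gave the low value, had the shortest early list, with 24286 islands against 37525 to 39736 in the other 3. In the 14096 shared regions H3K27ac was found in 95.8% and 96.1% in late KO, against 94.1% and 95.6% in late WT.

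**Figure D3:**
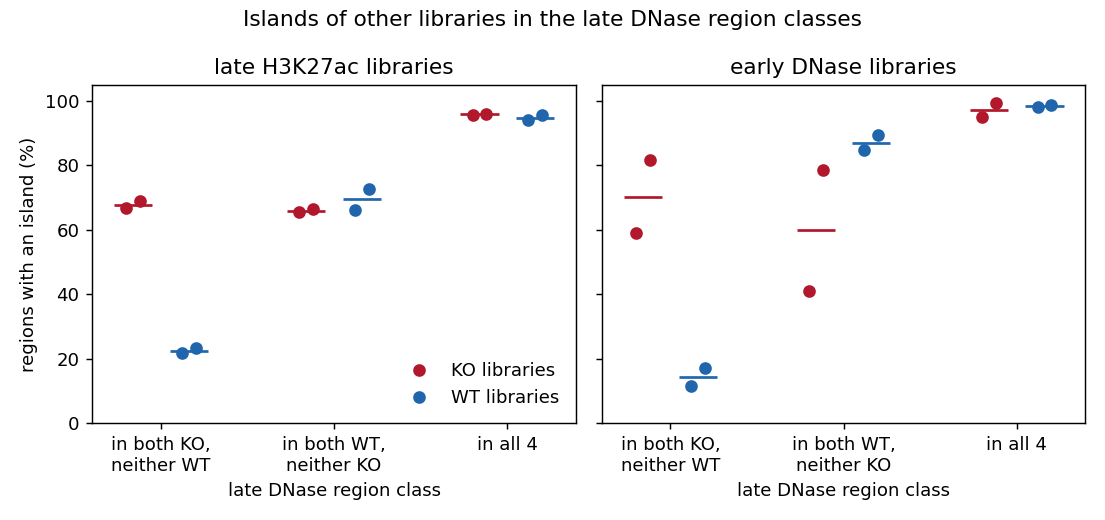
Share of late DNase regions (y axis, %) with an island in each late H3K27ac library (left) and each early DNase library (right), for the 358, 8122 and 14096 regions of the 3 classes in whole lists. Points are libraries and bars are means. H3K27ac differs between genotypes in regions found in KO alone, 66.8% and 69.0% against 21.8% and 23.2%.

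The 5 KO regions with the highest mean score percentile were of different kinds. A 3.0-kb region at chr17:15243801-15246800 (mm9) led, with a mean percentile of 92.7 in the KO lists. It had no H3K27ac island in either WT library and 1.0 kb of one in late KO replicate 2 only. A region at chr4:124853001-124855400 had 1.6 and 2.2 kb of DNase islands in KO, against 0 and 0 kb in WT. Its H3K27ac islands filled 2.4 kb in both KO libraries, against 0 kb in both WT libraries. A region at chr18:9489401-9495000 had 4.6 and 5.6 kb of DNase islands in KO, against none in WT, and H3K27ac of 5.6 kb in both KO libraries, against none in WT. In both of these regions DNase and H3K27ac split the genotypes in the same way. A region at chr5:120791201-120798000 had 6.6 and 6.8 kb of DNase islands in KO and none in WT, without H3K27ac in any late library. The fifth, chr16:5029201-5031400, held 2.2 and 1.8 kb in KO and none in WT, with H3K27ac in all 4 late libraries. The WT regions with the highest percentiles looked alike. All 5, from chr11:102177001-102182200 (mean percentile 81.6) to chr11:76651601-76652400 (79.5), were covered end to end by H3K27ac in all 4 late libraries. The first held no DNase island in either KO list and was filled by 5.2 kb of island in both WT lists.

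For a test across the genome, the kb covered by islands were taken in 10-kb bins as log2(kb + 0.5) and all 8 DNase libraries were fitted with limma. Of 37586 bins tested, 129 (0.343%) were higher in late KO and 682 (1.81%) were lower at a Benjamini-Hochberg adjusted p under 0.05, and the median log2 change over all bins was -0.17. At equal island number 695 of 22613 bins (3.07%) were higher and 484 (2.14%) lower, so the leading direction turned there too. Of the 129 higher bins, 102 were also called higher at equal island number, and of the 682 lower bins 175 were called lower. Without late WT replicate 1, and likewise without replicate 2, no bin was called in either direction, although 560 and 836 bins were higher and 5230 and 3772 lower at an unadjusted p under 0.05, and the 16 bins named below lost their calls as well. Without late KO replicate 1 the counts were 31 higher and 371 lower, and without late KO replicate 2 they were 15 and 180. Most calls were all or none. In 93.0% of the higher bins neither WT list had an island, and in 91.9% of the lower bins neither KO list had one. Where a group is empty, its spread is set by the floor of the scale, and the fitted change depends on the added 0.5 kb.

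Most of the 8 leading higher bins held no H3K27ac island. The bin with the largest rise, chr17:3010001-3020000, was covered by 8.8 and 9.4 kb of DNase islands in late KO, against 0 and 0 kb in late WT (limma adjusted p = 0.0123). The bin at chr17:3030001-3040000 had 8.2 and 8.2 kb in KO, against none in WT, and the bin between them 5.4 and 5.8 kb, against none. The other leading bins lay at chr5:120790001-120800000, chr12:20230001-20240000, chr7:71220001-71230000, chr6:100410001-100420000 and chr18:9490001-9500000, with KO means of 4.5 to 6.7 kb and no WT island. In 7 of these 8 bins no late H3K27ac library had an island. The exception was the bin on chromosome 18, with 5.0 kb of H3K27ac in both KO libraries and none in WT. The same 7 bins held islands in both early KO lists and in neither early WT list. The bin on chromosome 18 held 0 and 1.2 kb in early KO and none in early WT.

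Most of the leading lower bins lay under H3K27ac in both genotypes. The largest fall was at chr2:11610001-11620000, with 0 and 0 kb in late KO, against 7.8 and 9.2 kb in late WT (limma adjusted p = 0.0325). H3K27ac islands filled the 10 kb in all 4 late libraries. At equal island number this fall was no longer called (adjusted p = 0.581). A bin at chr3:60280001-60290000 had 0 and 0 kb in KO, against 6.6 and 6.0 kb in WT (adjusted p = 0.0123), and it too was filled by H3K27ac in all 4 libraries. A bin at chr15:59350001-59360000 had none in KO, against 6.2 and 4.8 kb in WT (adjusted p = 0.0123), and was also called at equal island number (adjusted p = 0.00875). The others, at chr6:83660001-83670000, chr13:43570001-43580000, chr3:89120001-89130000, chr3:127590001-127600000 and chr1:60820001-60830000, had no KO island and WT means of 5.1 to 5.6 kb. Of the 8, chr3:89120001-89130000 alone had no H3K27ac in any late library. At 5 of these 8 bins both early KO lists held islands.

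The KO change was also set against that of early cells. The difference between the late and the early KO effect passed the limma threshold in 0 bins, with 5022 at an unadjusted p under 0.05. It passed in 691 bins at equal island number, 1136 with the upper 50% of each list and 1939 without centring. In 123 of the 129 higher bins the early KO change had the same sign, and in 13 it was called itself. In the 682 lower bins the early change had the same sign in 347 and was called in 13. The matching shares over all bins tested are not given here. These counts therefore cannot be set against a background, and no shared early effect is read from them.

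To place genes on these lists, windows of 75 genes were drawn, each the gene and 20 kb on both sides. No mm9 annotation was at hand. The positions were written down from memory, in part by carrying remembered positions of a later build over to mm9, and a window or a gene start can be off by several kb. All 4 late lists had an island within 2 kb of 46 of the 75 starts so placed (61.3%), against 16.1% of all positions in the same windows. This is a weak check, since a start misplaced in a window dense with islands can also lie near one, and it says nothing of the 15 starts that had no island in any list. Windows of neighbouring genes overlap and share islands.

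The promoters of 4 genes at the centre of the question are shown because their starts, as placed, differed in openness. Both KO and both WT lists had an island within 2 kb of the start of Gata3 and of Il13. At Tbx21 neither KO list and 1 of the 2 WT lists had one, and at Ifng none of the 4 had one. The sequences are the 250 bases before each RefSeq start on GRCm38.p6, a later build than that of the islands. They lie at chr2:9878601-9878850 (Gata3, minus strand), chr11:53634703-53634952 (Il13, minus), chr11:97115332-97115581 (Tbx21, minus) and chr10:118440796-118441045 (Ifng, plus). Capitals mark matches, on either strand, to the words of 6 letters that start with A or T, go on with GATA and end with A or G, a form that GATA factors can bind.
Gata3: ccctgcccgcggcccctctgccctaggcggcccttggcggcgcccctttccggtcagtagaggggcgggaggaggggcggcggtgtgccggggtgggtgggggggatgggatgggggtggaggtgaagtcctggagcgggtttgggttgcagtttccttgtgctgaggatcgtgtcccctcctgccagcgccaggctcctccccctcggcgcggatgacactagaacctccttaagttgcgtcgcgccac
Il13: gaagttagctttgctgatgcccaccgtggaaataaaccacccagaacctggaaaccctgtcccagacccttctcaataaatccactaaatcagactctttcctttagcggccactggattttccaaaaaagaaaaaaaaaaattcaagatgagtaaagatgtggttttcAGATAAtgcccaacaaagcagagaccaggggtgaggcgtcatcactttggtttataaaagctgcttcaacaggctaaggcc
Tbx21: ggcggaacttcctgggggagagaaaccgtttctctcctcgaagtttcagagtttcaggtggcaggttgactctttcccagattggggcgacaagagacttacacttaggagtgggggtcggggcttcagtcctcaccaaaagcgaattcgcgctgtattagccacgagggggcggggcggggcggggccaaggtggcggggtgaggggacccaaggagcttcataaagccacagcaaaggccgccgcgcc
Ifng: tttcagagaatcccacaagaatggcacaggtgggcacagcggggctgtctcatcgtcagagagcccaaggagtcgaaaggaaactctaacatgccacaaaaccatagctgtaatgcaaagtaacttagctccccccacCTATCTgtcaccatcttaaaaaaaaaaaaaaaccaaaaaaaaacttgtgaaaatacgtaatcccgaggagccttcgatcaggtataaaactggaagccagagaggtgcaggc
Il13 and Ifng each held 1 match, and Gata3 and Tbx21 held none. Such a match occurred in 26.5% of the 32851 RefSeq promoters of that length. The T-box word AGGTGTGA was found in 1.12% of all promoters and in none of these 4. A match is a run of letters and not evidence of binding.

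Th2 loci were listed with less open chromatin in KO. The kb covered in KO were below those in WT, in both replicates, at 14 of 16 Th2 loci, and at none were they above (2.72% of 50-kb bins). Across the genome, KO lay below WT in this way in 62.2% of 50-kb bins. The median KO to WT ratio of the Th2 loci was 0.505, close to the 0.525 of all such bins. At equal island number it was 0.612, against 0.737 for 50-kb bins, and KO lay below WT at 12 of 16 loci, against 38.5% of bins. The Gata3 window, around the gene of the factor that defines Th2 cells, had 11.4 and 11.8 kb covered in late KO, against 25.2 and 26.6 kb in late WT. Both KO values lay far below both WT values, and H3K27ac covered 42.4 and 39.8 kb in KO, against 39.6 and 40.2 kb in WT. At the 3′ end of Gata3 as placed, a region at chr2:9775601-9778600 had no DNase island in KO, against 2.8 and 3.0 kb in WT, and was filled by H3K27ac in all 4 libraries.

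At the Th2 cytokine cluster, the Il4 window had 10.6 and 8.6 kb in KO, against 17.2 and 22 kb in WT. The Il13 window had 9.8 and 8.6 kb in KO, against 14.4 and 19.6 kb in WT. Rad50, a DNA repair gene whose introns hold the Th2 locus control region, had 11.6 and 9.4 kb in KO, against 20.2 and 21.4 kb in WT. The Il5 window had 6.8 and 7.4 kb in KO, against 13 and 11.4 kb in WT. All 4 windows thus had less in KO, without overlap. H3K27ac had no common direction there. It overlapped at Il4, with 44.8 and 45.6 kb in KO against 45.4 and 46.4 kb in WT, and was 37.6 kb in all 4 libraries at Il5. At Rad50 it was lower in KO, with 78.4 and 76.2 kb against 79 and 87.2 kb in WT, and at Il13 higher, with 42.8 and 42.4 kb in KO against 39.6 and 41.4 kb in WT. At equal island number Il4 and Il13 no longer separated the genotypes, with 10.6 and 8.6 kb in KO against 10.4 and 20 kb in WT at Il4. Downstream of Il4 as placed, the bin chr11:53400001-53410000 was called lower, with 0 and 0 kb in KO and 3.8 and 3.4 kb in WT (limma adjusted p = 0.0153). It was also called at equal island number (adjusted p = 0.00875).

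Among the other Th2 genes, the widest gaps at equal island number were those of Il4ra, the IL-4 receptor chain, and of the neighbours Il24 and Il10. Il4ra had 18.4 and 17.6 kb in KO, against 29.6 and 29.2 kb in WT. Il24, a cytokine gene, had 5.8 and 7.4 kb in KO, against 12.6 and 13.4 kb in WT. Il10, whose product restrains immune responses, had 10.6 and 12 kb in KO, against 16.6 and 18.2 kb in WT. A bin in the Il24 window, chr1:132770001-132780000, fell in KO, with 1.0 and 1.2 kb against 6.6 and 5.8 kb in WT (limma adjusted p = 0.0204), and it remained called at equal island number (adjusted p = 0.0124). Csf2, the GM-CSF gene, was the one Th2 locus of 16 above WT in both KO lists at equal island number, as were 9.27% of 50-kb bins, with 1.6 and 0.6 kb in KO against 0 and 0 kb in WT. In whole lists its groups overlapped, with 5.6 kb in WT replicate 2. In whole lists, 2 of 74 bins in Th2 windows (2.70%) were called lower and 0 higher, against 1.81% and 0.343% of all bins. At equal island number 4 of 64 were called lower and 1 higher, against 2.14% and 3.07% of all bins. The difference from the genome was not tested.

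**Figure D4:**
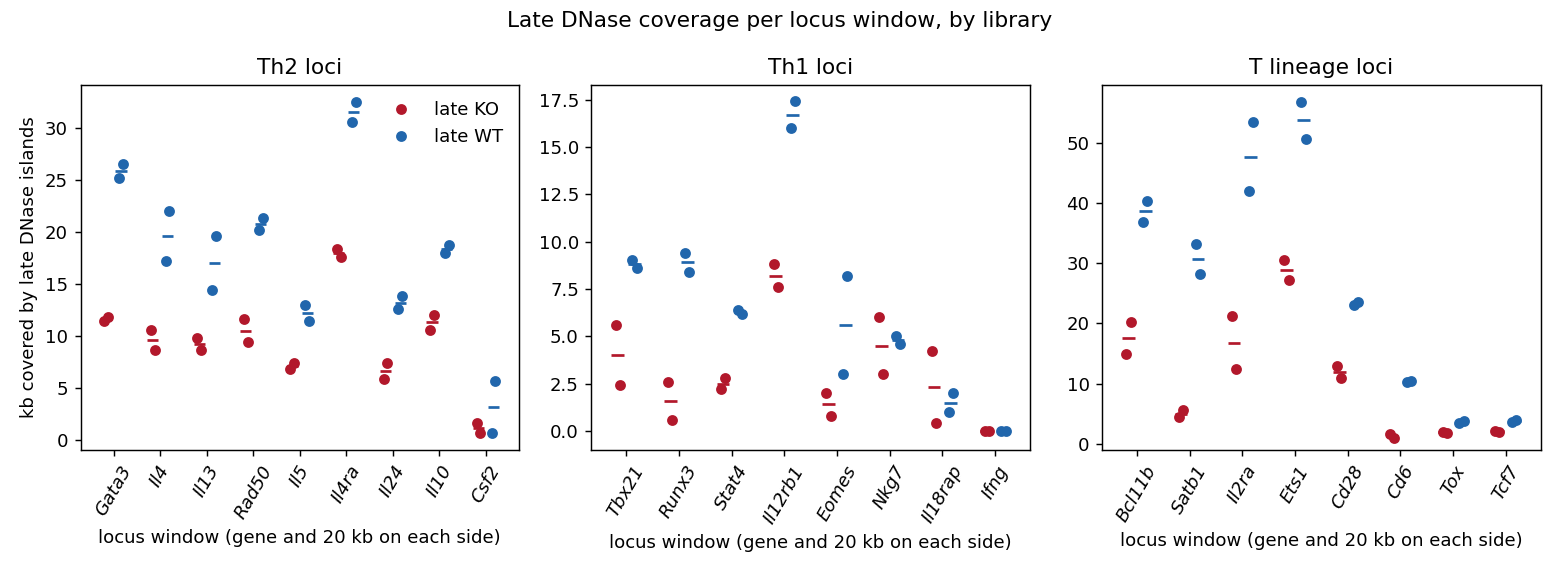
Length covered by late DNase islands (y axis, kb) in windows of named Th2, Th1 and T lineage loci, whole lists. Points are libraries, bars are means, red is KO and blue is WT. Gata3, Satb1, Il2ra and Cd6 separate the genotypes, while Nkg7 and Il18rap overlap and Ifng has no island.

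Th1 and cytotoxic loci had islands at 14 of 17 windows, with a median locus mean of 2.5 kb in KO and 5.6 kb in WT, against 7.75 kb in KO and 13.1 kb in WT at the Th2 loci. The window of Ifng, the defining Th1 cytokine, had no DNase island in any late list and no H3K27ac island in any late library. The windows of Cxcr3, a Th1 chemokine receptor, and Prf1, which encodes perforin, also lacked DNase islands in all 4 lists. This holds for 20 kb on each side of the gene. With 50 kb on each side, no Th1 window lacked DNase islands in all 4 lists. Of the 17 loci, KO lay below WT at 9 (52.9%), above at 0, and the groups overlapped or were empty at 8. All 9 were among the 14 windows with islands. The 62.2% of 50-kb bins with KO below WT counts only bins with islands in at least 2 late lists. The 52.9% includes windows without islands, so it cannot be set against that share. The median ratio was 0.524 in whole lists, against 0.525 for all such bins, and 0.833 at equal island number, against 0.737. Tbx21 had 5.6 and 2.4 kb in KO, against 9.0 and 8.6 kb in WT. Its H3K27ac went the other way, with 18.6 and 17 kb in KO against 9.2 and 11 kb in WT. Over the whole Th1 list H3K27ac covered more in both KO than in both WT libraries at 10 of 17 loci, at 3 of 16 Th2 loci and at 10 of 29 T lineage loci, and across the genome in 26.3% of 50-kb bins. It covered less in KO at 3 of 17, 4 of 16 and 6 of 29 loci, and in 17.8% of bins. The difference between the lists was not tested. Spi1 and Cebpa, factors of myeloid cells, had the same order. H3K27ac at Spi1 covered 16.8 and 14.6 kb in KO, against 8.2 and 8.2 kb in WT, and at Cebpa 2.8 and 2.4 kb in KO, against 0 and 0 kb in WT. They were 2 of the 8 markers of other cells with more in KO. Over those 8 markers H3K27ac covered 57.2 and 46.6 kb in KO, against 48.8 and 45.2 kb in WT, with none at Cd8a, Ms4a1 and Lyz2. Their part in the H3K27ac values of the Th1 loci was not tested. DNase islands covered more in both KO than in both WT lists at 0 of the 17. With 50 kb on each side, KO lay above WT at 1 of the 17 and below at 13. The shares were 2.72% and 62.2% in 50-kb bins, which are shorter than these windows.

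Nkg7, a granule protein gene of cytotoxic and Th1 cells, held a region listed in KO alone. It lay at chr7:50692001-50694400, where the gene lies as placed, and had 2.4 and 0.4 kb of DNase island in KO and none in WT. It was 1 of the 60 regions in Th1 windows (1.67%), near the 0.955% of all regions found in KO alone. H3K27ac covered 2.0 and 2.4 kb of it in KO, against 1.8 and 1.8 kb in WT. Its whole window overlapped between groups, with 6.0 and 3.0 kb in KO against 5.0 and 4.6 kb in WT. Il18rap and Il18r1, the chains of the IL-18 receptor, overlapped as well, with 4.2 and 0.4 kb in KO against 1.0 and 2.0 kb in WT at Il18rap. In both, the KO value rested on replicate 1 and came from the same islands, so the windows are not separate observations. Bhlhe40 and Irf1, transcription factors of the Th1 list, overlapped too, with ratios of 0.806 and 0.8. Eomes, a T-box factor of cytotoxic cells, had 2.0 and 0.8 kb in KO, against 3.0 and 8.2 kb in WT, and the groups overlapped at equal island number.

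At equal island number the widest gaps on the Th1 list were at Il12rb1, Runx3, Stat4 and Tbx21, and the kb that follow are those of whole lists. Runx3, a factor of the CD8 and Th1 fates, had 2.6 and 0.6 kb in KO, against 9.4 and 8.4 kb in WT. Bins in its window were called lower at chr4:134700001-134710000, with none in KO and 3.4 and 2.4 kb in WT (limma adjusted p = 0.0153), and at chr4:134690001-134700000 (adjusted p = 0.0422). The first of these was not called at equal island number (adjusted p = 0.198). Stat4, which carries IL-12 signals, had 2.2 and 2.8 kb in KO, against 6.4 and 6.2 kb in WT. Il12rb1, a chain of the IL-12 receptor, had 8.8 and 7.6 kb in KO, against 16 and 17.4 kb in WT. Of 65 bins in Th1 windows, 3 (4.62%) were called lower and 0 higher in whole lists, against 1.81% and 0.343% of all bins. The third lower bin lay in the Il12rb2 window. At equal island number 1 of 39 was called lower and 2 higher, against 2.14% and 3.07% of all bins.

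T lineage loci held the widest differences in covered kb. KO lay below WT at 26 of 29 loci (89.7%), against 62.2% of 50-kb bins, but the median ratio of 0.515 was close to the 0.525 of those bins. In lists of equal island number KO lay below WT at 19 of 29 (65.5%), against 38.5% of bins, with a median ratio of 0.647, against 0.737. Gene windows are longer than the bins where the gene is long, and whether that bears on these shares was not tested. Bcl11b itself had 15 and 20.2 kb in KO, against 36.8 and 40.4 kb in WT, while H3K27ac covered 89.6 and 86.0 kb in KO, against 89.6 and 81.0 kb in WT. Island lists do not show whether the floxed part was deleted. The bin chr12:109220001-109230000 inside Bcl11b as placed was called lower, with none in KO and 3.2 and 2.8 kb in WT (limma adjusted p = 0.036), but not at equal island number (adjusted p = 0.137).

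Satb1, a chromatin organiser of T cells, had one of the widest gaps. Its window had 4.4 and 5.6 kb in KO, against 33.2 and 28.2 kb in WT, a ratio of 0.163, and at equal island number 4.4 and 5.6 kb against 19.8 and 18.4 kb. H3K27ac covered 93.2 and 86.0 kb there in KO, against 96.2 and 93.6 kb in WT. In early cells the Satb1 window had 7.2 and 17.8 kb of DNase islands in KO, against 17.2 and 29.0 kb in WT. The bin chr17:51960001-51970000 in this window fell, with 0.8 and 0.8 kb in KO against 6.8 and 5.0 kb in WT (limma adjusted p = 0.0337), and was called at equal island number (adjusted p = 0.0341). Il2ra, the high-affinity IL-2 receptor chain, had 21.2 and 12.4 kb in KO, against 42.0 and 53.4 kb in WT. The bin with the largest fall in the genome lies at the 3′ end of the gene as placed. There, 1 region, chr2:11610001-11623000, had no DNase island in KO, against 10.4 and 11.4 kb in WT, under H3K27ac of 13 kb in both KO libraries and 10.8 and 12.4 kb in WT.

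Cd6, a T cell surface receptor, had 1.6 and 1.0 kb in KO, against 10.2 and 10.4 kb in WT, the lowest ratio of the T lineage list at 0.126. Bins called lower in its window were chr19:10850001-10860000 (limma adjusted p = 0.0323) and chr19:10910001-10920000 (adjusted p = 0.0342), the second also at equal island number (adjusted p = 0.0323). The Cd28 window, around the costimulatory receptor, had 13 and 11 kb in KO, against 23.0 and 23.6 kb in WT. Its bin chr1:60820001-60830000 had 0 and 0 kb in KO, against 5.6 and 4.6 kb in WT (limma adjusted p = 0.0204), and the value at equal island number was 0.0833. Ets1, a lymphoid transcription factor, had 30.6 and 27.2 kb in KO, against 56.8 and 50.6 kb in WT. The bin chr11:99000001-99010000 in the window of Ccr7, a lymph node homing receptor, was empty in KO and had 3.0 and 3.0 kb in WT (limma adjusted p = 0.0153, and 0.00875 at equal island number). In whole lists, 11 of 189 bins in T lineage windows (5.82%) were called lower and 0 higher, against 1.81% and 0.343% of all bins. At equal island number 6 of 141 were called lower and 1 higher, against 2.14% and 3.07% of all bins. The test of the lists themselves was not made, since the genes were chosen with earlier results known.

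The few T lineage loci with more in KO at equal island number held short islands. Tox, a regulator of T cell development, had 2.0 and 1.8 kb in KO, against 1.2 and 0.6 kb in WT, at equal number. In whole lists KO lay below WT, with 2.0 and 1.8 kb against 3.4 and 3.8 kb. Zbtb16, Cd5 and Tcf7 overlapped between the groups at equal number. The windows of genes used in nearly all cells behaved like the rest in whole lists. Actb had 11.6 and 10.8 kb in KO, against 19 and 17.6 kb in WT, and the median ratio of the 5 such loci was 0.556. KO lay below WT at 4 of the 5. At equal island number KO lay below WT at 3 of the 5, with a median ratio of 0.696. Whether the Th2 or T lineage loci differ from these 5 was not tested.

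**Figure D5:**
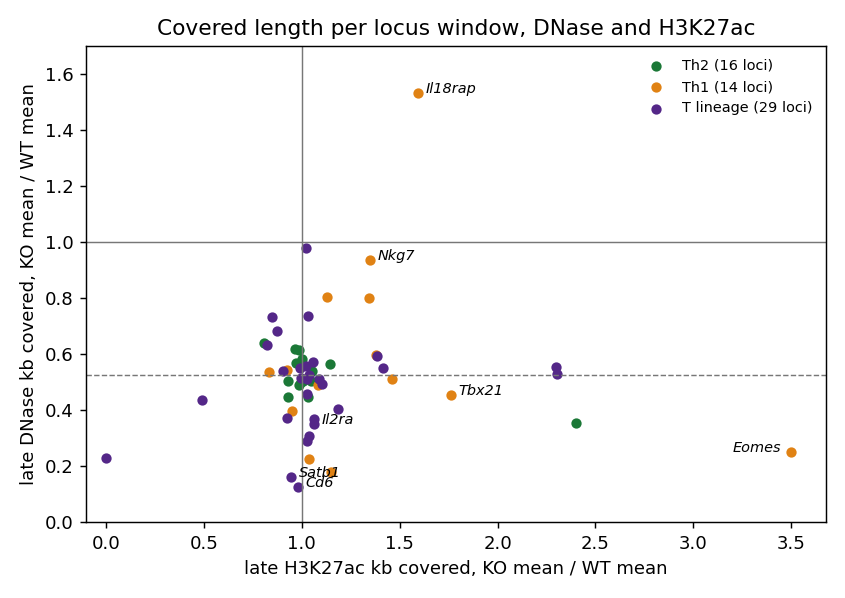
KO to WT ratio of mean covered kb in late DNase lists (y axis) against that in late H3K27ac lists (x axis). Each point is 1 locus of the Th2, Th1 or T lineage list with islands in WT in both assays. Solid lines mark a ratio of 1 and the dashed line the 0.525 of all 50-kb bins. Satb1 and Cd6 lie low at an H3K27ac ratio near 1, and Tbx21 lies to the right at a DNase ratio of 0.455.

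Across all windows, 2 of 373 regions (0.536%) were found in KO alone, against 76 (20.4%) in WT alone, near the 0.955% and 21.7% of all regions. Of the 76, H3K27ac islands lay in 58 in both late KO libraries and in 59 in both late WT libraries. The windows of Cd8a (CD8 T cells), Ms4a1 (B cells) and Lyz2 (myeloid cells) had no late DNase island in any list. Other genes of these cells had some, such as Cd79a with 5.2 and 7.2 kb in KO, against 8.8 and 10 kb in WT, and Spi1 with 2.8 and 4.8 kb in KO, against 4.0 and 3.0 kb in WT. Of the 8 markers of other cells, 1 start as placed had an island in all 4 lists and 5 in none. Of the T cell markers, Cd3e had 8.6 and 10.6 kb in KO, against 13.4 and 12.8 kb in WT, and Cd4 had 6.6 and 6.8 kb in KO, against 11.8 and 10.8 kb in WT.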

How the data were processed

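DNase-seq and H3K27ac ChIP-seq gave 16 island lists, of which the 4 late DNase lists were compared and the others served as readouts. The submitters' processing notes name CASAVA 2.18, Bowtie2, SICER 1.1 and the build mm9, and DNase-seq followed a protocol for few cells, per the labels' protocols. The deposited files give each island's position and a score, the authors' own value, used here only to rank islands within a list. Control libraries, read numbers, batches and dates are not given in the sources used here.

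Genes, regions and lists were chosen with earlier results of these data known. Positions are 1-based, on chromosomes 1 to 19 and X. Merged regions joined islands that overlapped or touched. Bins of 10 kb covered in at least 2 of the 8 DNase libraries were fitted as log2(kb + 0.5) by limma 3.58.1 (lmFit and trended eBayes) in 4 groups, after centring each library at the median of those bins that all 8 covered, with Benjamini-Hochberg adjustment over all bins. The script was tested on simulated data. Scripts ran in Python 3.11.15 (numpy 2.4.6, pandas 2.3.3, scipy 1.17.1, matplotlib 3.10.9) and R 4.3.3.

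Gene positions on mm9 were not read from any annotation. They were entered by hand from memory, partly by shifting remembered positions of a later build. Gene lengths matched RefSeq (GRCm38.p6) within 5 kb for 66 of 75 genes, and 20 of 24 gaps between neighbours did, but this does not test the mm9 positions themselves.

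The text names the 5 regions of each class that ranked first by mean score percentile, and the 8 called bins that rose most and the 8 that fell most. Named loci were Bcl11b, Gata3, Tbx21, Ifng and the Il4 cluster, and per list the 4 with the largest gain and loss of kb at equal island number. Other loci and bins were named after their values were seen. Alternatives were equal lists by number or length, the upper 50% of each list, no centring, quantile normalization, a pseudocount of 2 kb, no filter, bins of 50 kb, late libraries alone, a replicate block, stricter region rules and each library left out.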

Additional observations from a re-analysis of the deposited data

How the results depend on the processing

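Most counts moved with the choices. Bins higher and lower, 129 and 682 as reported, became 695 and 484 at equal island number, 104 and 1167 with the upper 50% of each list, 156 and 2574 without centring, 131 and 200 with quantile normalization, 62 and 100 with a pseudocount of 2 kb, 102 and 272 in bins of 50 kb, and 459 and 3479 with the 4 late libraries alone. Leaving out 1 library gave 0 to 31 higher and 0 to 371 lower. Equal replicate numbers of late KO and WT did not deviate together (correlation -0.0008), so the fit reported here left them unpaired. With 2 replicates per group this cannot show whether equal numbers share a culture or batch. The replicate block gave 21 and 75. The late minus early difference, 0 bins as reported, gave 691 at equal island number, 1136 with the upper 50% and 1939 without centring, alternatives added after the data were seen.

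Regions in KO alone were 1205 at equal number, 2885 at equal covered length, 164 with the upper 50%, and 380 to 788 with 1 library left out. Regions in WT alone were 1430, 256 and 4124, and 8844 to 17399 with 1 left out. Regions in all 4 numbered 7254 with the upper 50% and 5948 with at least 50% of a region covered. The H3K27ac gap at KO regions, 45.4 points, was 21.9, 11.6 and 31.1 under the 3 cuts, 27.6 with at least 50% covered, and 32.5 to 43.3 with 1 library left out, alternatives also added later. Median locus ratios at equal number were 0.612 (Th2), 0.833 (Th1) and 0.647 (T lineage). With 1 library left out they were 0.484 to 0.573 for Th2 and 0.444 to 0.559 for the T lineage. Among named bins, chr6:83660001-83670000 turned to a log2 of 0.28 at equal island number and 0.34 with the upper 50%, and chr3:89120001-89130000 to 0.34 with the upper 50%. The cause was not tested. Of the 16 named bins, 16 kept their call without centring, with quantile normalization, with a pseudocount of 2 kb and without a filter. With the late libraries alone 15 kept it, and with the replicate block 11. At equal island number 5 kept it, and with the upper 50% of each list 6. Not every named bin had a value under these cuts. Depth is unknown, so a missing island cannot be told from a shallow library.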
